A study of Mus musculus with 53 samples.

Results

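The 10 integrin subunit genes described here are Itgal, Itgam, Itgax, Itgb2, Itgav, Itgb3, Itgb1, Itgb7, Itga4 and Itga6, taken by gene name from RNA-seq tables that list 23847 loci. Their levels were followed in bone marrow-derived macrophages (BMDMs) of wild-type (WT) and Stat6-/- mice during treatment with IL-4, the cytokine that turns macrophages to the alternative (M2-like) state by way of the transcription factor STAT6. Marrow cells were grown for 6 days in medium with supernatant of L929 cells, a source of the growth factor M-CSF. IL-4 was given at 20 ng/ml, and treated and untreated cells were collected after 1, 3, 6 and 24 h, with a further control at 0 h. Both genotypes were on the C57BL/6 background, and Stat6 was deleted in the whole body, so the progenitors also lacked it. The 53 samples formed 18 groups. Each Stat6-/- group held 2 samples and each WT group 4, except the WT group at 24 h with the cytokine, of which 3 were analysed here (replicates 2, 3 and 4).

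Integrins are heterodimers of an alpha and a beta chain that span the plasma membrane and tie the extracellular matrix or a neighbouring cell to the actin cytoskeleton. In leukocytes the beta2 chain, encoded by Itgb2 (CD18), pairs with the alpha chains of Itgal (CD11a, forming LFA-1, a receptor for ICAMs), Itgam (CD11b, forming Mac-1 or complement receptor 3) and Itgax (CD11c, forming complement receptor 4). Itgb1 and Itgb7 encode the beta chains that join alpha4 (Itga4) in receptors for VCAM-1, fibronectin and MAdCAM-1, and beta1 also joins alpha6 (Itga6) in a laminin receptor. The chain encoded by Itgav joins beta1, beta3 (Itgb3) or beta5 in receptors for vitronectin and other RGD ligands, and alphavbeta3 is the major integrin of osteoclasts. An alpha chain needs a beta chain to reach the cell surface, and mRNA levels do not show how many dimers form.

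Values are FPKM, in which fragment numbers are corrected for transcript length and library size, so levels can be set side by side between genes. Per sample they added up to between 385888.9 and 464914.9. The depth of the libraries was read from the step size of low values. Set against the median of all samples, it ranged from 0.706 to 1.555. Stat6 itself was at 58.7 to 90.6 FPKM in WT and at 14.3 to 24.0 FPKM in Stat6-/- samples, without overlap. Arg1 and Retnla, known IL-4 target genes, rose in WT at 24 h by 5.93 and 11.99 on the log2 scale (adjusted p = 2.0e-26 and 2.3e-28) and did not pass the test in Stat6-/- (adjusted p = 1). Macrophage markers (Csf1r, Emr1, Cd68, Mertk and Fcgr1) summed to 2365 to 3916 FPKM in every sample. Markers of lymphocytes, which also use several of these integrins, summed to at most 0.903 FPKM, with Cd3e and Ncr1 under 0.1 FPKM throughout. Neutrophil markers were not absent: S100a8, S100a9, Mpo, Elane and Camp summed to 195 to 963 FPKM.

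The 2 Stat6-/- replicates differed from each other in most of these genes at every time, whatever the treatment. Itgax was higher in replicate 1 in 9 of 9 groups, by a median of 1.35 on the log2(FPKM + 1) scale, and Itgb3 was also higher there in 9 of 9 groups. Itgam, Itgal, Itgav, Itgb1, Itgb7 and Itga6 were lower in replicate 1 in 9 of 9 groups. For Itgax, Itgb3, Itgb2, Itgal, Itga6 and Itga4, Stat6-/- levels at 6 h or 24 h are therefore given by replicate. The tested differences take both replicates together.

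All 10 genes are annotated as protein-coding, and each locus of the tables overlaps the GENCODE gene of the same name on mm10. Itgal (chr7:127296260-127335137), Itgam (chr7:128062640-128118491) and Itgax (chr7:128129568-128150657) lie on the same strand of chromosome 7, and Itgam and Itgax are neighbours. Itgb2 lies at chr10:77530348-77565674, Itgb3 at chr11:104608000-104670471, Itgb1 at chr8:128685654-128733579 and Itgb7 at chr15:102215995-102231935. Itga6 (chr2:71787083-71856758), Itga4 (chr2:79255426-79333114) and Itgav (chr2:83724397-83806916) share chromosome 2. FPKM were computed over the exons of each locus. Of the 50-base sequences in the Itgax transcripts, 8.02% also occur in Itgad, the alpha chain gene closest to it in sequence, which reached at most 6.48 FPKM. For Itgam, 66.3% of such sequences are shared with Gm49368, a gene model on the same strand that overlaps Itgam, so Itgam reads could be split or discarded by some counting schemes. The share was 5.31% for Itga6 and at most 1.05% for the others. The 3' part of the Itga4 locus overlaps Cerkl on the opposite strand, which reached at most 0.985 FPKM in a library type not stated to keep strand.

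In untreated WT macrophages at 0 h the beta2 family dominated. Itgb2 was the most abundant subunit at 447 ± 58.3 FPKM (SD, n = 4), followed by Itgam at 231 ± 9.82, Itgb1 at 139 ± 11.2 and Itgb7 at 68.8 ± 29.0 FPKM. Itga6 was at 29.2 ± 4.15, Itga4 at 21.0 ± 4.31, Itgal at 18.1 ± 1.65 and Itgav at 17.9 ± 3.83 FPKM. Itgax (4.87 ± 1.34) and Itgb3 (1.18 ± 0.286) came last. The ranges of Itga4, Itgal and Itgav overlapped, so their order could not be told, whereas every other pair of neighbours in this order was separate in all 4 samples.

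**Figure D1:**
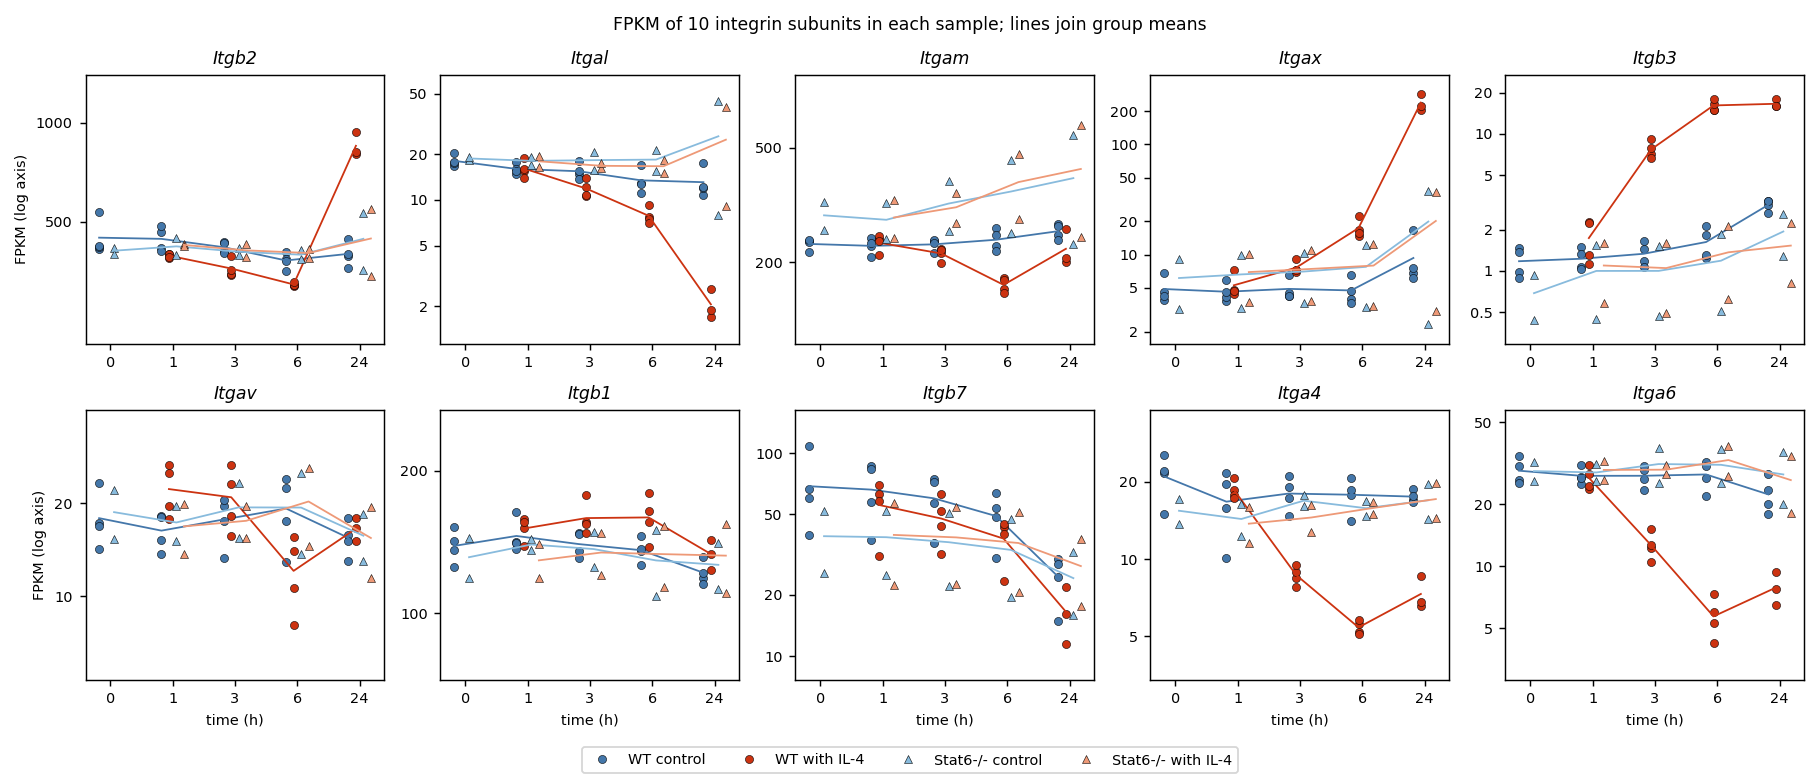
FPKM (log axis) of each integrin subunit gene in every sample against time in h (sampling times evenly spaced), with WT as circles, Stat6-/- as triangles in paler shades, controls in blue, IL-4 in red and lines through group means. In WT with IL-4, Itgax and Itgb3 climbed away from the controls, Itga4, Itga6 and Itgal dropped below them, and the Stat6-/- symbols of both treatments lie together.

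Among the beta2 integrin genes, IL-4 moved the alpha chains apart in WT cells. Itgax rose to a level near that of Itgam, Itgb2 rose about 2-fold at 24 h, Itgal fell to a low level, and Itgam did not pass the test at 24 h. Macrophage markers as a group were lower at that time, at 3007 to 3525 FPKM in controls and 2365 to 2420.2 FPKM with IL-4, with 4 of 5 falling, and their part in these results was not tested. These are bulk samples, in which a change in the share of a cell type and a change of RNA per cell cannot be told apart. A gene passed the test when limma's p, adjusted by Benjamini-Hochberg over all 11146 tested loci, was under 0.05. All 10 genes reached 1 FPKM in at least 1 sample and were tested.

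For Itgax, the WT controls at 24 h were at 6.79, 6.08, 7.63 and 16.8 FPKM, and the IL-4 samples at 288, 208 and 225 FPKM. Every IL-4 sample was thus far above every control, including the 4th control, which stood above the other 3. The ratio of the means was 25.8, with a log2 fold change of 4.64 (SE 0.57, adjusted p = 1.2e-08). At 6 h the controls were at 3.98, 3.67, 4.68 and 6.59 FPKM and the IL-4 samples at 14.8, 16.6, 15.9 and 22.4 FPKM. These groups were also separate, with a log2 fold change of 1.69 (SE 0.53, adjusted p = 0.0089). Without WT replicate 1, 2 or 3 the log2 change at 6 h was 1.70, 1.62 and 1.73 with adjusted p of 0.055, 0.072 and 0.059, and the call was lost in each case. The call held without replicate 4. At 3 h the IL-4 samples (7.28, 6.90, 7.20 and 9.10 FPKM) lay above the controls (4.25, 4.53, 4.18 and 6.58 FPKM), and the log2 difference of 0.56 (SE 0.53) did not pass the test (adjusted p = 0.50). It passed when only the samples compared entered the fit (SE 0.13, adjusted p = 0.0085). It also passed when Stat6-/- replicate 1 or 2, whose spread enters the shared error estimate, was left out.

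CD11c, the product of Itgax, is widely used as a marker of dendritic cells. In these libraries the dendritic cell genes Flt3, Zbtb46, Xcr1 and Clec9a were at most at 0.678, 0.702, 0.221 and 0.310 FPKM in any of the 53 samples. The list of 6 dendritic cell markers, with Siglech and Ccr7, summed to 1.32 to 5.06 FPKM in WT controls at 24 h and to 1.23 to 2.63 FPKM with IL-4, so its range was not higher where Itgax was. A list of 6 osteoclast markers moved with Itgax, from a sum of 39.2 to 92.9 FPKM in WT controls at 24 h to 522 to 529 FPKM with IL-4. Most of that sum came from Atp6v0d2 and Dcstamp, while Calcr and Oscar stayed at or below 0.00869 and 0.0690 FPKM. Ctsk, the bone-resorbing protease cathepsin K, was at 7.42 ± 3.60 FPKM in the controls (SD, n = 4) and 23.6 ± 8.33 FPKM with IL-4 (n = 3), and Acp5, tartrate-resistant acid phosphatase, at 4.47 ± 1.81 and 8.05 ± 1.19 FPKM. The part of these cells in the result was not tested.

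Itgb2 followed a different course from its partner Itgax. At 24 h the WT controls were at 392, 362, 398 and 444 FPKM and the IL-4 samples at 936, 806 and 812 FPKM. The groups were separate, with a log2 fold change of 1.09 (SE 0.11, adjusted p = 1.1e-10). At 6 h the IL-4 samples (318, 321, 320.4 and 328 FPKM) lay instead below the controls (354, 404, 385 and 379 FPKM). That log2 difference of −0.24 (SE 0.10) did not pass the test (adjusted p = 0.054). It did pass with the replicate number as a block (adjusted p = 0.018), as did the difference of −0.22 at 3 h (adjusted p = 0.042 with the block, 0.11 without it). Both also passed when only the samples compared entered the fit (adjusted p = 0.0098 at 6 h and 0.018 at 3 h). Leaving out either Stat6-/- replicate had the same effect, with an adjusted p of 0.0081 at 6 h and 0.022 at 3 h.

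Itgal, the alpha chain of LFA-1, fell late. In WT at 24 h the controls were at 17.4, 10.8, 12.0 and 12.1 FPKM and the IL-4 samples at 2.60, 1.70 and 1.88 FPKM. Every IL-4 sample was far below the lowest control, and the log2 fold change was −2.19 (SE 0.31, adjusted p = 1.5e-07). At 6 h the IL-4 samples (9.20, 7.71, 7.55 and 7.04 FPKM) were below the controls (16.9, 11.2, 12.9 and 12.8 FPKM) with a log2 fold change of −0.70 (SE 0.28, adjusted p = 0.046). That call at 6 h was lost without any 1 of the 4 WT replicates, at similar sizes (−0.66 to −0.77, adjusted p = 0.11 to 0.18). The difference of −0.35 at 3 h (adjusted p = 0.41) passed when only the samples compared entered the fit (adjusted p = 0.022). It also passed without either Stat6-/- replicate. Neutrophil markers also fell in WT at 24 h, from a sum of 404 to 550 FPKM in controls to 195 to 287 FPKM with IL-4, and their part in the change of Itgal was not tested.

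Itgam, the alpha chain of Mac-1, was lower with IL-4 at 6 h and did not pass the test at 24 h. In WT at 24 h the controls were at 272, 267, 248 and 238 FPKM and the IL-4 samples at 261, 200 and 207 FPKM. These ranges overlapped, and the log2 difference of −0.21 (SE 0.22) did not pass the test (adjusted p = 0.42), though it did without either Stat6-/- replicate (adjusted p = 0.023). At 6 h the IL-4 samples (176, 174, 161 and 156 FPKM) were all below the controls (263, 248, 227 and 219 FPKM). The log2 fold change of −0.52 (SE 0.20) passed with an adjusted p of 0.037. That call was lost without any 1 of the 4 WT replicates, at similar sizes (−0.50 to −0.53, adjusted p = 0.13 to 0.15).

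The alpha chains that can join beta2 were set side by side as shares of the FPKM summed over Itgal, Itgam, Itgax and Itgad. In WT controls at 24 h Itgam held 91.8% ± 2.10, Itgal 4.67% ± 0.860 and Itgax 3.39% ± 1.95 (SD, n = 4). With 24 h of IL-4 the shares were 47.3% ± 0.748 for Itgam, 0.434% ± 0.0288 for Itgal and 51.0% ± 0.816 for Itgax (SD, n = 3). The Itgax share was 51.6%, 50.1% and 51.3% in the 3 IL-4 samples and 2.29%, 2.14%, 2.85% and 6.28% in the controls. The sum over the 4 alpha chains was 267 to 297 FPKM in the controls and 415 to 557 FPKM with IL-4, so the sum rose along with the share of Itgax. In Stat6-/- samples at 24 h the Itgax share was 13.6% and 0.387% in the controls and 12.8% and 0.478% with IL-4, in replicates 1 and 2.

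**Figure D2:**
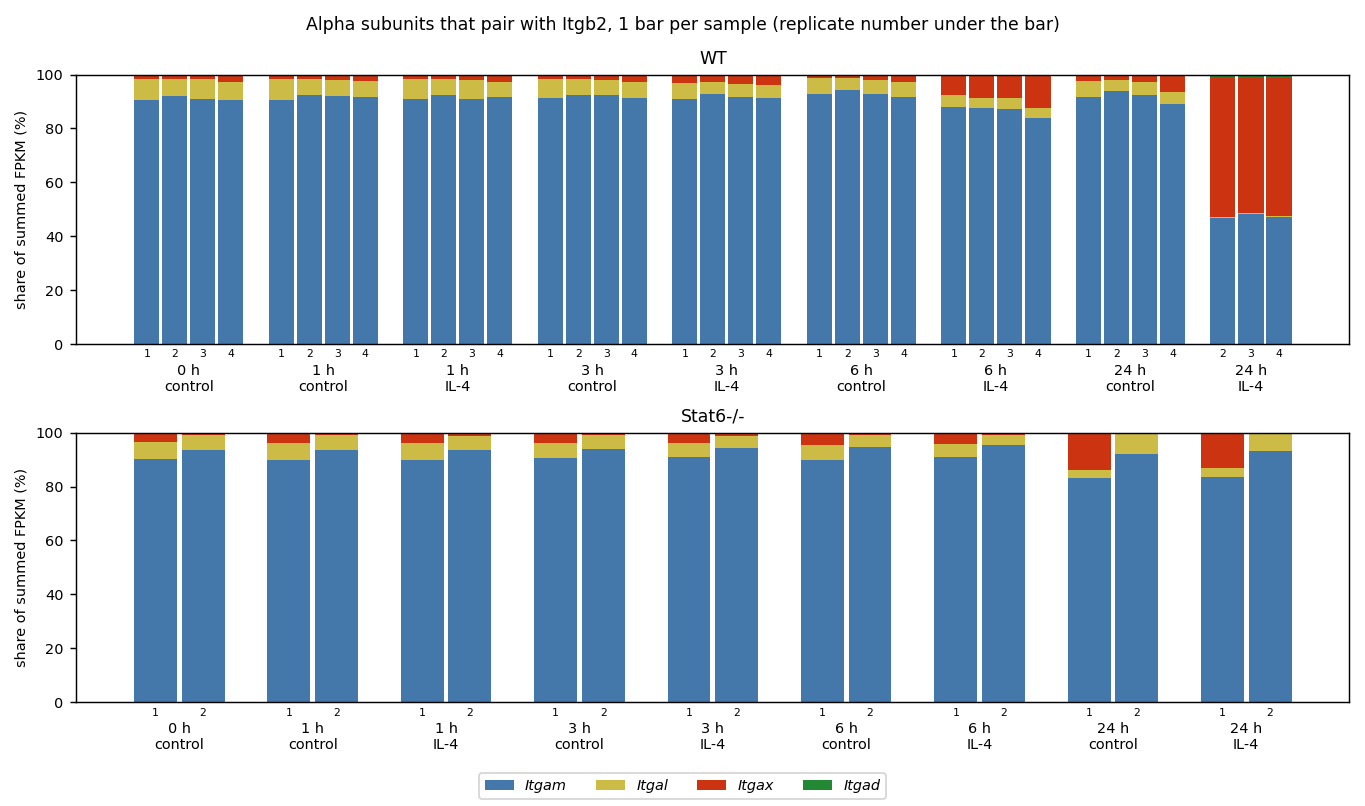
Share in % of each alpha chain gene in the FPKM summed over Itgam, Itgal, Itgax and Itgad, with 1 stacked bar per sample, WT above and Stat6-/- below. Itgax takes between 50.1% and 51.6% in the 3 WT samples with 24 h of IL-4, and at most 13.6% in Stat6-/- samples, where replicate 1 is higher than replicate 2 under both treatments.

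Of the genes of the vitronectin receptors, Itgb3 rose in WT from 3 h on, whereas Itgav fell at 6 h and was back near the controls at 24 h. Itgb3 was at 1.18, 1.06, 1.65 and 1.45 FPKM in WT controls at 3 h and at 7.14, 6.67, 9.09 and 7.90 FPKM with IL-4. At 6 h the values were 1.25, 1.31, 1.83 and 2.11 FPKM in controls and 14.9, 14.9, 16.6 and 18.03 FPKM with IL-4. At 24 h they were 2.63, 3.24, 3.05 and 3.23 FPKM in controls and 17.9, 15.8 and 15.9 FPKM with IL-4. The groups were separate at each of these times, and the IL-4 level at 24 h was close to that at 6 h while the controls had risen. The log2 fold changes were 1.90 (SE 0.22, adjusted p = 5.8e-09), 2.71 (SE 0.22, adjusted p = 4.9e-13) and 2.12 (SE 0.24, adjusted p = 1.8e-09). At 1 h the difference was 0.27 (SE 0.22, adjusted p = 0.56), and 0.017 with the replicate block.

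Itgav, the alpha partner of beta3, was at 24.1, 22.4, 17.5 and 13.0 FPKM in WT controls at 6 h and at 14.1, 15.6, 10.6 and 8.05 FPKM with IL-4. The ranges overlapped, but each IL-4 sample was below the control of the same number, and the log2 fold change of −0.63 (SE 0.22) passed with an adjusted p of 0.020. It did not pass without WT replicate 1 (−0.60, adjusted p = 0.095) or 3 (−0.62, adjusted p = 0.10). Nor did it pass when only the samples compared entered the fit (adjusted p = 0.0503). At 24 h the log2 difference was 0.10 (SE 0.24, adjusted p = 0.75). With the block, Itgav was also higher with IL-4 at 1 h (log2 0.42, adjusted p = 0.00051; 0.30 without the block) and at 3 h (0.22, adjusted p = 0.047; 0.54 without it). Among the beta chain genes that can join alphav, Itgb3 held 1.55% ± 0.174 of the summed FPKM of Itgb1, Itgb3, Itgb5, Itgb6 and Itgb8 in WT controls at 24 h (SD, n = 4) and 7.67% ± 0.304 with IL-4 (n = 3). Itgb1 kept 61.9% ± 2.31 and 61.8% ± 0.215 of that sum, so Itgb3 remained a minor chain beside Itgb1 and Itgb5. Megakaryocyte and platelet markers, which accompany Itgb3 in that lineage, summed to 2.31 to 7.83 FPKM over all groups. The 6 osteoclast markers, of another lineage that uses alphavbeta3, summed in WT to 24.4 to 39.4 FPKM in controls and 30.9 to 41.1 FPKM with IL-4 at 3 h. At 6 h their sum went from 23.7 to 41.5 FPKM in controls to 65.6 to 104 FPKM with IL-4, and at 24 h from 39.2 to 92.9 FPKM to 522 to 529 FPKM. Their part in the rise of Itgb3 was not tested.

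Of the alpha4 and alpha6 integrins, both alpha chains fell in WT from 3 h on, while the beta chains Itgb1 and Itgb7 did not pass the test at any time. Itga6, the alpha chain of the laminin receptor, was at 32.3, 30.7, 26.8 and 22.1 FPKM in WT controls at 6 h and at 6.01, 7.32, 5.32 and 4.24 FPKM with IL-4. The groups were far apart, with a log2 fold change of −2.11 (SE 0.18, adjusted p = 1.8e-12). The change was −1.07 (SE 0.18, adjusted p = 9.5e-06) at 3 h and −1.39 (SE 0.20, adjusted p = 1.8e-07) at 24 h, when the controls were at 17.99 to 27.96 FPKM and the IL-4 samples at 6.51 to 9.37 FPKM.

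Itga4, which forms the VCAM-1 receptor VLA-4 with beta1, was at 20.7, 14.1, 17.8 and 18.6 FPKM in WT controls at 6 h and at 5.59, 5.22, 5.09 and 5.78 FPKM with IL-4. The IL-4 samples were all below the controls and closer together than them. The log2 fold change was −1.54 (SE 0.16, adjusted p = 2.2e-10). It was −0.97 (SE 0.16, adjusted p = 5.3e-06) at 3 h and −1.16 (SE 0.17, adjusted p = 4.5e-07) at 24 h, with separate ranges at both times. For both Itga4 and Itga6 the mean level with IL-4 was lowest at 6 h.

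Itgb1, the beta chain shared by most matrix receptors, was at 119, 132, 121 and 115 FPKM in WT controls at 24 h and at 143, 134 and 123 FPKM with IL-4. These ranges overlapped, and the log2 difference was 0.13 (SE 0.12, adjusted p = 0.35). With the block its small differences of 0.18 at 3 h (adjusted p = 0.0063; 0.23 without it) and 0.22 at 6 h (adjusted p = 0.00057; 0.091 without it) passed, and the latter also passed without either Stat6-/- replicate (adjusted p = 0.016).

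Itgb7 was at 30.2, 28.5, 24.6 and 14.8 FPKM in WT controls at 24 h and at 22.0, 16.2 and 11.5 FPKM with IL-4. Here the animals spread widely: the 4th replicate was the lowest in both groups, and each IL-4 sample was below the control of the same number. The log2 difference was −0.54 (SE 0.43, adjusted p = 0.29), and with the block −0.41 (adjusted p = 0.00030). With the block the differences at 3 h (−0.31, adjusted p = 0.0033; 0.64 without it) and 6 h (−0.36, adjusted p = 0.00071; 0.50 without it) also passed.

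Counted over the 10 genes, 0 passed at 1 h in WT, where 9.39% of all tested loci passed in either direction. The count at an unadjusted p under 0.05 was also 0, and with the block 2 passed. At 3 h, 1 gene rose (Itgb3) beside 16.4% of all loci, and 2 fell (Itga4 and Itga6) beside 12.5%. At 6 h, 2 rose (Itgb3 and Itgax) beside 22% of all loci, and 5 fell (Itga4, Itga6, Itgal, Itgam and Itgav) beside 19.2%. At 24 h, 3 rose (Itgax, Itgb3 and Itgb2) beside 23.4%, and 3 fell (Itgal, Itga6 and Itga4) beside 31.6%. With the replicate block 2, 7, 10 and 7 of the 10 passed at 1, 3, 6 and 24 h, beside 1908, 4580, 6154 and 7379 of the 11146 loci.

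Counts of changes that also reached 2-fold (1 log2 unit or more either way) stood further from the background. At 3 h, 1 gene rose by this much beside 2.61% of all loci, and 1 fell (Itga6) beside 1.27%. At 6 h, 2 rose beside 3.18%, and 2 fell (Itga4 and Itga6) beside 2.36%. At 24 h, 3 rose beside 3.91% and 3 fell beside 4.58%. The median absolute log2 fold change of the 10 genes was 0.16, 0.33, 0.66 and 1.13 at 1, 3, 6 and 24 h, beside 0.10, 0.15, 0.21 and 0.29 over all tested loci. The 10 were listed with earlier results of these data in view, so these figures describe them only.

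**Figure D3:**
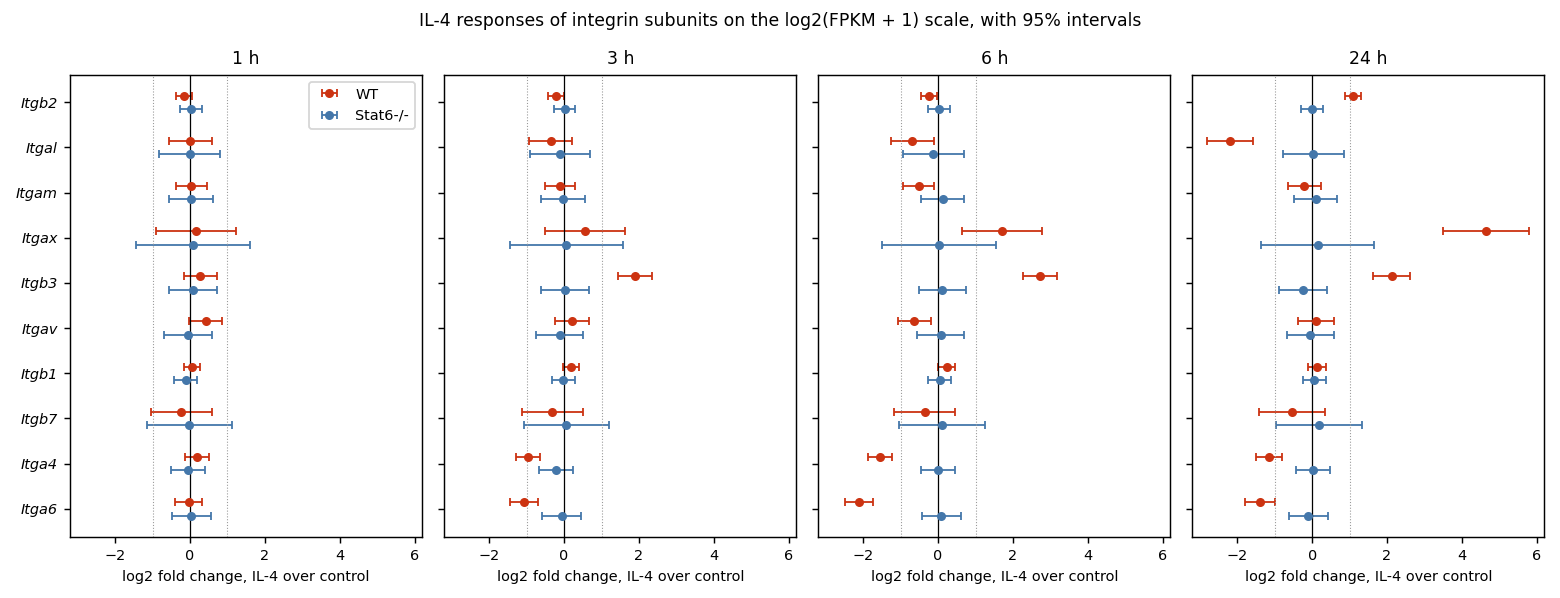
Log2 fold change of IL-4 over the time-matched control on the log2(FPKM + 1) scale, with 95% intervals, for each integrin subunit gene in WT (red) and Stat6-/- (blue) at 1, 3, 6 and 24 h. Dotted lines mark a 2-fold change. All Stat6-/- points lie between −0.24 and 0.18, and the WT points spread from −2.19 to 4.64 by 24 h.

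In Stat6-/- macrophages 0 of the 10 genes passed the test at 1, 3, 6 or 24 h of IL-4, and the share of all tested loci that passed was 0% at each time. At an unadjusted p under 0.05 the counts were 0 of 10 at each time and 51, 131, 88 and 37 of all loci. With Tukey's adjustment in a separate fit of each locus, and none over loci, 4, 3, 0 and 0 loci passed. With the block 2, 4, 4 and 1 loci passed. Without a filter on low values 1, 4, 4 and 11 loci passed, and without Stat6-/- replicate 1, with 1 sample left in each Stat6-/- group, 3, 13, 6 and 1. Under every alternative run 0 of the 10 genes passed. For Itgax the 2 Stat6-/- controls at 24 h were at 37.6 and 2.32 FPKM, and the IL-4 samples at 37.4 and 3.08 FPKM. The replicates thus differed far more than the treatments. The log2 difference was 0.14, with a 95% interval from −1.37 to 1.65, which excludes the WT change of 4.64 but not a 2-fold change. With the block, which takes out a constant offset per replicate number over all times, the interval was −0.56 to 0.84. Under that fit a 2-fold change is excluded as well. The gap between the 2 replicates was not constant for Itgax, at 1.25 to 3.54 on the log2(FPKM + 1) scale over the 9 groups. For Itgb3 the controls at 6 h were at 1.86 and 0.513 FPKM and the IL-4 samples at 2.11 and 0.623 FPKM, a log2 difference of 0.11 (95% interval −0.52 to 0.75).

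For Itgb2 at 24 h the Stat6-/- controls were at 530.2 and 356 FPKM and the IL-4 samples at 546 and 342 FPKM, a log2 difference of −0.01 (95% interval −0.30 to 0.28). Itgal was at 7.92 and 44.5 FPKM in the controls and at 9.12 and 40.7 FPKM with IL-4, a log2 difference of 0.03 (−0.78 to 0.84). At 6 h Itga6 was at 25.3 and 37.0 FPKM in the controls and at 27.5 and 38.2 FPKM with IL-4, a difference of 0.08 (−0.44 to 0.60). Itga4 was at 16.8 and 14.8 FPKM in the controls and at 16.7 and 14.9 FPKM with IL-4, a difference of 0.00 (−0.45 to 0.46).

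The difference between the responses of WT and Stat6-/- macrophages was tested directly as an interaction. At 1 h 0 of the 10 genes passed, beside 3.36% of all loci. At 3 h 2 passed beside 11.2%, which were Itgb3 (log2 1.87, SE 0.38, adjusted p = 0.00051) and Itga6 (−1.001, SE 0.31, adjusted p = 0.029). Itga6 at 3 h did not pass without WT replicate 1 (adjusted p = 0.11), 3 (0.10) or 4 (0.052) or without Stat6-/- replicate 1 (−0.80, adjusted p = 0.12). At 6 h 3 passed beside 16.5%: Itgb3 (2.60, SE 0.38, adjusted p = 2.2e-06), Itga6 (−2.19, SE 0.31, adjusted p = 1.1e-06) and Itga4 (−1.54, SE 0.27, adjusted p = 5.3e-05). The difference in the 6 h response of Itgax was 1.67 (SE 0.91) and did not pass (adjusted p = 0.25), whereas with the block it did (adjusted p = 0.0022), along with Itgam (−0.64, adjusted p = 0.0058), Itgav (−0.70, adjusted p = 0.00047) and Itgb7 (−0.46, adjusted p = 0.018). Itga4 at 3 h also passed with the block (−0.75, adjusted p = 0.031; 0.073 without it) and without WT replicate 2 (−0.83, adjusted p = 0.028). Over all tested loci, 2381 passed with the block at 3 h and 3362 at 6 h, against 1248 and 1837 without it. Leaving out Stat6-/- replicate 1 or 2 leaves 1 sample in each Stat6-/- group, assumed to vary like the WT groups, and the 6 h differences of Itgax (adjusted p = 0.013 and 0.014) and Itgam (0.012 and 0.0036) passed as well.

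At 24 h 6 of the 10 genes passed the interaction test, beside 27% of all loci. Responses in WT exceeded those in Stat6-/- by 4.49 for Itgax (SE 0.94, adjusted p = 0.00036), 2.36 for Itgb3 (SE 0.39, adjusted p = 1.8e-05) and 1.10 for Itgb2 (SE 0.18, adjusted p = 1.3e-05). They were below those in Stat6-/- by a log2 difference of −2.22 for Itgal (SE 0.50, adjusted p = 0.00092), −1.29 for Itga6 (SE 0.32, adjusted p = 0.0024) and −1.18 for Itga4 (SE 0.28, adjusted p = 0.0016). When only the 4 groups compared entered the fit, the adjusted p was 0.067 for Itgax, 0.13 for Itgal and 0.068 for Itga6, and the sizes were the same. Itgb7 (−0.72) did not pass (adjusted p = 0.48), and with the block it did (−0.59, adjusted p = 0.0024). Among all tested loci 5019 passed at 24 h with the block, against 3008 without it.

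The WT response changed between 6 h and 24 h for several genes. The difference of the 2 responses, each against its own control, passed for 4 of the 10 genes beside 27.8% of all loci. It was 2.94 for Itgax (SE 0.78, adjusted p = 0.0037), 1.33 for Itgb2 (SE 0.15, adjusted p = 5.0e-09), 0.73 for Itga6 (SE 0.27, adjusted p = 0.037) and −1.498 for Itgal (SE 0.42, adjusted p = 0.0058). The beta2 genes other than Itgam thus responded mainly after 6 h, and the fall of Itga6 was smaller at 24 h than at 6 h. For Itgb3 (−0.59, adjusted p = 0.18) and Itgav (0.73, adjusted p = 0.092) the differences passed with the block (−0.64, adjusted p = 5.8e-05, and 0.78, adjusted p = 6.8e-06) and without either Stat6-/- replicate (0.013 and 0.040), as did Itgam without either of these (0.31, adjusted p = 0.027 and 0.026). The difference between the 24 h and 6 h responses passed with the block for 4916 of all tested loci, against 3094 without it. The calls of Itga6, Itgal and Itgax were each lost in fits without a single WT replicate, at similar sizes. Itga6 lost its call without any 1 of the 4 (log2 0.67 to 0.78). Itgal lost it without replicate 3 (−1.45, adjusted p = 0.076) or 4 (−1.52, adjusted p = 0.054). Itgax lost it without replicate 2 (2.73, adjusted p = 0.067) or 3 (2.95, adjusted p = 0.052).

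Without IL-4, 0 of the 10 genes passed the test of a difference between genotypes. At 0 h, 2.18% of all loci passed, and 1 of the 10 (Itga4) had an unadjusted p under 0.05. Again 0 passed beside 0.0179% when the 5 control times were first averaged per replicate (4 WT and 2 Stat6-/-). The largest differences at 0 h were those of Itgb7 (−0.79, SE 0.49, adjusted p = 0.50), which was at 109, 66.8, 60.3 and 39.4 FPKM in WT and at 25.8 and 52.2 FPKM in Stat6-/-, and of Itga4 (−0.41, SE 0.19, adjusted p = 0.33). Itgam was higher in Stat6-/- by 0.41 (SE 0.18, adjusted p = 0.42) over the control times. Without Stat6-/- replicate 1, which leaves 1 Stat6-/- mouse and so no measure of spread between such mice, this difference for Itgam was 0.75. In that setting the difference at 0 h was 0.48 for Itgam and −0.59 for Itgb3, and that of Itgb3 over the control times was −0.69.

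Between 0 h and 24 h of control culture in WT, 2 of the 10 passed beside 17.2% of all loci. Itgb7 fell from 109, 66.8, 60.3 and 39.4 FPKM to 30.2, 28.5, 24.6 and 14.8 FPKM, a log2 fold change of −1.41 (SE 0.40, adjusted p = 0.013). That call was lost without WT replicate 1 (−1.27, adjusted p = 0.11), 2 (−1.47, adjusted p = 0.058) or 3 (−1.45, adjusted p = 0.087). Itgb3 rose from 0.980, 0.889, 1.47 and 1.37 FPKM to 2.63, 3.24, 3.05 and 3.23 FPKM, a log2 fold change of 0.90 (SE 0.22, adjusted p = 0.0043), which did not pass without WT replicate 2 (0.81, adjusted p = 0.064). With the block Itga6 (−0.38, adjusted p = 0.00062), Itgax (0.73, adjusted p = 0.017) and Itgb1 (−0.19, adjusted p = 0.0064) passed too. Of all tested loci 4134 passed in WT with the block, against 1922 without it. Without either Stat6-/- replicate Itga6 (adjusted p = 0.046), Itgal (−0.46, adjusted p = 0.0062) and Itgax (adjusted p = 0.0094) passed. In Stat6-/- 0 of the 10 passed beside 0.718% of all loci (1 at an unadjusted p under 0.05). With the block 2 passed there, Itgb3 (0.78, adjusted p = 1.1e-05) and Itgb7 (−0.66, adjusted p = 0.00020). Among all tested loci 1873 passed in Stat6-/- with the block, against 80 without it.

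The 2 Stat6-/- replicates parted further during control culture. Itgax went from 9.08 to 37.6 FPKM in replicate 1 and from 3.18 to 2.32 FPKM in replicate 2. Itgal went from 18.4 to 7.92 FPKM in replicate 1 and from 19.1 to 44.5 FPKM in replicate 2, and Itgam from 258 to 231 FPKM and from 323 to 553 FPKM. The osteoclast list also differed between them, with sums of 170 and 22.5 FPKM at 24 h in replicates 1 and 2, and the neutrophil list was at 782 and 542 FPKM. Taken alone, replicate 1 gave a log2 change of 1.94 for Itgax, −1.12 for Itgal and 0.89 for Itgb3. Replicate 2 gave 1.18 for Itgal and 0.77 for Itgam. Each of these values sets 1 sample against 1, which gives no measure of spread between Stat6-/- mice. In WT controls, replicate 4 likewise had the highest Itgax level at each of the 5 times.

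Of 17 further integrin subunit genes, 7 were tested and the other 10 did not reach 1 FPKM in any sample. Itgad, whose chain also joins beta2, rose in WT at 24 h from 0.253 ± 0.169 (SD, n = 4) to 5.85 ± 0.553 FPKM (n = 3), a log2 fold change of 2.46 (adjusted p = 2.1e-19). Its gene lies beside Itgax, and part of its sequence is shared with it. Itga1, a collagen receptor chain, rose early and briefly: its log2 fold change was 1.25 at 3 h (adjusted p = 1.6e-20), 1.39 at 6 h (adjusted p = 4.5e-22) and 0.17 at 24 h (adjusted p = 0.022). Itga9 fell at 24 h by 1.60 on the log2 scale (adjusted p = 4.1e-06), and Itga8 was lower at 6 h (−0.67, adjusted p = 3.2e-07) and 24 h (−0.63, adjusted p = 3.9e-06). Itga5, the fibronectin receptor chain, was at 28.3 ± 1.70 FPKM in controls and 45.7 ± 6.95 FPKM with IL-4 at 24 h (log2 0.66, adjusted p = 0.015). Itgb5, the other common partner of alphav, fell at 6 h by 0.71 (adjusted p = 2.2e-05) and at 3 h by 0.39 (adjusted p = 0.020), and Itgb2l did not pass at any time. In Stat6-/- 0 of these 7 passed at any time of IL-4, beside 0% of all tested loci.

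Integrin ligands and counter-receptors were tested for 14 of 25 listed genes, and 3 rose and 5 fell in WT at 24 h, beside 23.4% and 31.6% of all loci. Thbs1, a matricellular ligand of several integrins, fell by 4.08 on the log2 scale (adjusted p = 3.7e-19), from 72.3 ± 14.9 to 3.31 ± 0.812 FPKM. Fn1, fibronectin, rose by 2.09 (adjusted p = 5.5e-16), and Cdh1, E-cadherin, the ligand of alphaEbeta7, rose by 1.86 (adjusted p = 1.5e-13) from 0.0201 ± 0.0103 to 2.85 ± 1.35 FPKM. Icam1, the counter-receptor of LFA-1 and Mac-1, had a log2 fold change of 0.46 at 6 h (adjusted p = 0.0028) and −0.56 at 24 h (adjusted p = 0.00058). Spp1, osteopontin, the most abundant gene of the list, fell by 0.72 at 24 h (adjusted p = 0.012), and Tgfb1, the next most abundant, did not pass (−0.04, adjusted p = 0.82).

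Among proteins that activate integrins or couple them to actin, 31 of 36 listed genes were tested, and 9 rose and 12 fell in WT at 24 h (23.4% and 31.6% of all loci). Fyb, the adapter ADAP, fell by 1.92 (adjusted p = 5.6e-12), from 199 ± 20.7 to 51.8 ± 5.43 FPKM. Ptk2b, the adhesion kinase PYK2, fell by 1.18 at 6 h (adjusted p = 5.1e-17). The actin linkers Actn1, Zyx and Vcl rose by 1.58 (adjusted p = 6.8e-08), 1.36 (adjusted p = 1.1e-10) and 1.31 (adjusted p = 5.9e-09) at 24 h. Vcl, vinculin, had been lower at 6 h (−0.78, adjusted p = 2.8e-05), and Dab2 turned the other way, from 1.73 at 3 h (adjusted p = 9.3e-07) to −1.14 at 24 h (adjusted p = 0.00075). Rap1b, the most abundant of the list and the GTPase that switches integrins on, did not pass (−0.46 at 24 h, adjusted p = 0.072), nor did Fermt3, the integrin activator kindlin-3 (−0.13, adjusted p = 0.29).

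Of 13 lateral partners of integrins in the membrane, all tested, 5 rose and 4 fell in WT at 24 h, where 23.4% of all loci rose and 31.6% fell. Plaur, the urokinase receptor, fell at 3 h (−1.36, adjusted p = 1.3e-05) and rose at 24 h (2.40, adjusted p = 4.8e-10). The tetraspanins Cd9 and Cd151 rose at 24 h by 1.49 (adjusted p = 0.0036) and 1.09 (adjusted p = 2.7e-09), while Cd82 fell by 1.70 (adjusted p = 1.7e-08). Cd53, the second most abundant of the list after Cd9, rose at 6 h (0.42, adjusted p = 0.010) and did not pass at 24 h (−0.28, adjusted p = 0.097), and the tetraspanin Cd37 fell by 0.90 at 24 h (adjusted p = 2.6e-07). In Stat6-/- 0 genes of these 3 lists passed at any time of IL-4, beside 0% of all tested loci.

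**Figure D4:**
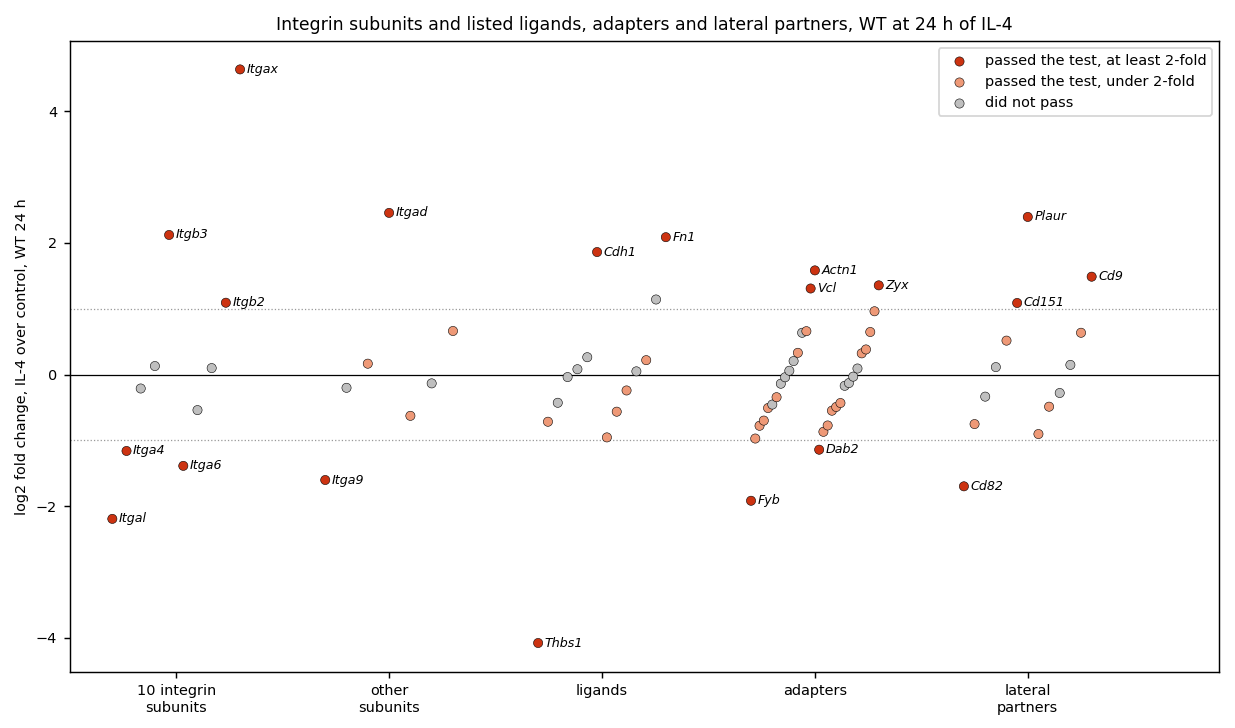
Log2 fold change of IL-4 over control in WT at 24 h for the 10 integrin subunits, the 7 other tested subunits and the tested genes of the 3 lists, with 1 point per gene, dark red where the change passed the test and reached 2-fold, light red where it passed only, and grey otherwise. Each group holds genes on both sides of 0, from Thbs1 at −4.08 to Itgax at 4.64.

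The course of each gene over the 18 group means of log2(FPKM + 1) was compared with that of all tested loci, as a description in which the points share libraries. Itgax was most like Sphk1 (Pearson r = 0.99) and Gpc1 (0.99), Itgb2 like Rhoc (0.98) and Prokr1 (0.96), and Itgb3 like Fam20c (0.99) and Inpp5a (0.98). Itga6 was most like Pik3ap1 (0.98) and Elk3 (0.97), Itga4 like Ptprc (0.96) and Pstpip2 (0.96), and Itgal like Cyp4f16 (0.97) and Ccdc111 (0.97). Itgam was most like Sbf2 (0.97) and Vcam1 (0.92), Itgb7 like Spp1 (0.98) and Tcf19 (0.98), Itgb1 like Kif24 (0.92) and Slc2a6 (0.92), and Itgav like Cep250 (0.85) and Kitl (0.83). Among the 10 genes themselves the closest pair was Itga4 and Itga6 (0.92), and the most opposite pairs were Itga6 with Itgb3 (−0.98) and Itgal with Itgax (−0.90).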

How the data were processed

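The integrin subunits and gene lists were chosen with earlier results of these data known. The deposited values are FPKM per locus and sample, which the authors made from paired, poly(A)-selected RNA-seq reads with TopHat2 2.0.7 and Cufflinks 2.0.2 on mm10, per the submitters' processing notes. Whether strand was kept is not given in the sources used here. Tables of 53 samples were joined by locus, and groups come from the sample labels.

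Loci reaching 1 FPKM in at least 1 sample (11146 of 23847) were fitted as log2(FPKM + 1), which understates the change of low genes, in 1 limma 3.58.1 model (R 4.3.3) with 18 group means over all 53 samples, an intensity trend and 35 residual degrees of freedom. Two-sided p were adjusted by Benjamini-Hochberg over all loci, with a threshold of 0.05, and 2-fold calls also needed a log2 fold change of 1. Genotypes over the control times were compared in a separate limma fit of replicate means. The fit was tested on simulated data. Python 3.11.15 joined the tables and matplotlib 3.10.9 drew the plots.

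The study describes WT values as averages over separate animals, so replicates were read as animals. The main fit treats all samples as independent, and its p-values rest on the spread between samples within groups, pooled over all groups. Same-numbered WT samples deviated together. The correlation was over 0.1 in 13 of 15 pairs of a control and an IL-4 sample of the same time and number (lowest 0.027, median 0.24). Among differently numbered WT pairs it was over 0.1 in 8 of 45 (median −0.10, highest 0.28). In Stat6-/- groups the 2 samples mirror each other about their mean, so both numbers give the same value at each time (0.79 to 0.90). Fits with the replicate number as a block are therefore given where they change a call. The sources used here do not state that a number marks the same animal throughout. If it does, the residual degrees of freedom of the main fit count repeated samples of the same animals, not separate animals. That limit also holds for the main fit's comparison of genotypes at 0 h. P-values with the block rest on the spread left after a constant offset per replicate number is taken out. FPKM hold no read counts, so depth is relative and no counting intervals are given.

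All 10 subunits and the 7 other tested subunits are named. From each other list the genes called in WT at any time (at most 6, by size) and the 2 further genes of highest mean FPKM are named, and Icam1 was added after its values were seen. Alternatives tried were pseudocounts of 0.1 and 5, other filters, quantile and median-of-ratios scaling, no trend, the compared samples alone, Tukey's adjustment, the replicate block and leaving out each replicate number. Tukey's adjustment was made over pairs of groups in a plain fit of each locus, without limma and without the 0 h samples. A macrophage marker and a regulatory sequence are not reported here.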

Additional observations from a re-analysis of the deposited data

Results flagged for a closer look

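Of 80 groups of 4 samples tested, 5 held a sample far from the others, where chance gives about 1 in 20. Itgax stood out 3 times, always in WT replicate 4, at 7.20 FPKM with 1 h of IL-4 (the others at 4.43 to 4.74), 6.58 FPKM in the 3 h control (4.18 to 4.53) and 16.8 FPKM in the 24 h control (6.08 to 7.63). In the 0 h WT controls, Itgam was low in replicate 3, at 217 FPKM beside 234 to 238, and Itgb2 was high in replicate 1, at 534 FPKM beside 412 to 422.

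A difference between responses passed the test in 15 of 50 cases. Between WT and Stat6-/- the log2 difference in the response was 1.87 for Itgb3 and −1.001 for Itga6 at 3 h. At 6 h it was 2.60 for Itgb3, −2.19 for Itga6 and −1.54 for Itga4. At 24 h it was 4.49 for Itgax, 2.36 for Itgb3, 1.10 for Itgb2, −2.22 for Itgal, −1.29 for Itga6 and −1.18 for Itga4. Between 24 h and 6 h in WT it was 2.94 for Itgax, 1.33 for Itgb2, 0.73 for Itga6 and −1.498 for Itgal. The groups of these differences share control samples.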

How the results depend on the processing

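Over all alternatives, 2484 of the 2600 recomputed values of the 10 genes stayed on their side of the threshold, 43 lost a call and 72 gained one. The sign changed in 52. Among these was Itgal between 0 h and 24 h of control culture in Stat6-/-, at 0.03 with both replicates and −1.12 without Stat6-/- replicate 2. Without replicate 1 it was 1.18, since the replicates moved in opposite directions. The number of integrin subunits past the 2-fold call changed by more than 1.5 times in the following cases. With a pseudocount of 5 it was 1 rather than 2 for WT at 3 h and 0 rather than 2 for the difference between genotypes at 3 h, and with 0.1 it was 2 rather than 1 for control culture in WT. With only the compared samples it was 3 rather than 6 for the difference between genotypes at 24 h, a fit with fewer samples. Leaving out single replicates gave 1 to 2 for the difference between genotypes at 3 h, 1 to 3 for 24 h against 6 h, 0 to 1 for control culture in WT and 0 to 2 in Stat6-/-. Among all loci, the calls in WT numbered 166, 433, 617 and 947 at 1, 3, 6 and 24 h, and 74, 233, 316 and 472 with a pseudocount of 5 and 245, 649, 931 and 1522 with 0.1. At 6 h in WT, Tukey's adjustment, made in its own fit of each locus, ended the calls of Itgax (adjusted p = 0.23), Itgal (0.66), Itgam (0.58) and Itgav (0.35). That fit differs from the main model in its estimate of the spread as well as in the adjustment. Without a filter on low values Itgal (adjusted p = 0.074) and Itgam (0.060) lost theirs there.

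With the replicate block 2, 7, 10 and 7 of the 10 subunits passed in WT at 1, 3, 6 and 24 h, against 0, 3, 7 and 6 without it. The block changed no call beyond those given with the results, and the 2-fold calls of the subunits in WT numbered 0, 2, 4 and 6 with and without it. Numbers 1 and 2 occur in both genotypes but name different mice, so no block was fitted for the comparison of genotypes. Depth limits the genes under 1 FPKM, and 2 Stat6-/- replicates limit what can be said of small responses there.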
